A study of Mus musculus with 2 samples.

Results

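Cytl1, Chil1, Msmp, Rbp4, Crispld1, Clu and Dlk1 are 7 of the 32245 genes measured in single cells of mouse knee joints, and they code for proteins that leave the cell or are shed from its surface. They were chosen by name, with their measured values in these same libraries already known, so every value below is a description and no test was run on it. There was 1 library per genotype, which leaves no replicate error, and each comparison describes these 2 libraries. The control was Stat3fl/fl, in which both Stat3 alleles are floxed and no Cre is named. The mutant was Acan-Cre+/Cre;Stat3fl/fl, which carries the same floxed alleles and, inserted at the aggrecan locus, a tamoxifen-regulated Cre that acts in cells expressing aggrecan. The labels do not give when tamoxifen was given for these libraries, and no library with the Cre and unfloxed Stat3 was used here, so the inserted Cre and the loss of Stat3 cannot be told apart. Both libraries came from female mice aged 1 month, as pools of the knees of 2 to 3 mice, sorted against dead cells and against blood and endothelial surface markers. Levels are given as CPM, the gene's UMIs (unique molecular identifiers, 1 per captured transcript) summed over the named cells, per 1000000 UMIs of those cells, and genotype ratios as log2((mutant CPM + 1)/(control CPM + 1)).

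Articular cartilage covers the joint surface, and its outermost chondrocytes make lubricin, the product of Prg4, and release many soluble proteins into the matrix and the joint fluid. Growth cartilage chondrocytes lie deeper and make Matn1, a matrix adaptor protein. Cytl1 codes for a small cytokine-like protein of cartilage, Chil1 for a chitin-binding lectin of the chitinase family that has lost its enzyme activity, and Msmp for a small cysteine-rich protein. Rbp4 carries retinol, Crispld1 is a secreted protein with a CAP domain, Clu (clusterin) is an extracellular chaperone, and Dlk1 is a membrane protein related to Notch ligands whose outer part can be shed.

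The cells of interest were the ones marked in the authors' classification column, all above 0 for Sox9, the master regulator of chondrocytes, and Col2a1, the main collagen of cartilage, and all without globin. They numbered 501 of 4903 control cells and 332 of 1340 mutant cells, with a median of 5876 and 8595 UMIs. Matn1 was at 0 in 393 control and 269 mutant marked cells and above 0 in 108 and 63. Another 512 control cells were above 0 for Sox9 and Col2a1, carried globin UMIs and were not marked, against 3 in the mutant library. Of the control and mutant marked cells, 3.99% and 20.2% had over 5% mitochondrial UMIs. The libraries shared 2 cell barcodes. Stat3, the floxed gene, stood at 142 and 103 CPM in control and mutant marked cells, and reads from the ends of transcripts do not show whether the floxed exons were lost.

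RefSeq promoter windows on GRCm38.p6, from 250 bases before to 50 bases after the transcript start, were found for 5 of the 7 genes, and none was matched for Crispld1 and Clu. Printed here are those of the pair of genes named first, of Msmp, which had the steepest gradient between chondrocyte clusters, and of Rbp4, whose genotype ratio was close to that of Cytl1. All read 5′ to 3′ on the strand of the gene, and capitals mark the only match of the motifs searched. The windows lie at chr5:37735269-37735568 (plus strand), chr1:134181906-134182205 (plus strand), chr4:43584445-43584744 (minus strand) and chr19:38124762-38125061 (minus strand).
Cytl1: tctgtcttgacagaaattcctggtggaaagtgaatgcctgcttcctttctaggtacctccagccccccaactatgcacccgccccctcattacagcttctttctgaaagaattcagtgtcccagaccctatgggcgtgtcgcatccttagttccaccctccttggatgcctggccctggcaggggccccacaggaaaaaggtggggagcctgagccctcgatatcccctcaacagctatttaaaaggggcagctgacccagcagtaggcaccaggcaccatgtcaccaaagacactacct
Chil1: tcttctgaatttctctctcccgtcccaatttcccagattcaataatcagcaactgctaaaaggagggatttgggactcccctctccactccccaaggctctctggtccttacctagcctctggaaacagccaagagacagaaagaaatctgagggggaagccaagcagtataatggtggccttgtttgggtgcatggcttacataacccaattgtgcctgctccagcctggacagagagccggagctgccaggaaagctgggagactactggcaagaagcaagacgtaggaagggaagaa
Msmp: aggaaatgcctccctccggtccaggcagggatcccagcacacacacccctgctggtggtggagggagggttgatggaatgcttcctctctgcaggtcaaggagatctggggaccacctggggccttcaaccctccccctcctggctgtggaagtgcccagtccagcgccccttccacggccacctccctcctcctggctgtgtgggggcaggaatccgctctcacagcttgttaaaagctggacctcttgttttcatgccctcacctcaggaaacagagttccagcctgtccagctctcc
Rbp4: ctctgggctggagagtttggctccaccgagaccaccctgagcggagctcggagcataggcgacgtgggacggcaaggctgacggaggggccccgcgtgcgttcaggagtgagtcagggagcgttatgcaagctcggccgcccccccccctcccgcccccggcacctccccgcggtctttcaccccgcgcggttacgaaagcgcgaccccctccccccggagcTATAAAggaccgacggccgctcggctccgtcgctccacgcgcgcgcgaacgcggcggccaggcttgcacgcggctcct

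The Rbp4 window printed above was rich in G and C, at 72%, with 40 CG dinucleotides. A second Rbp4 start, whose window is not printed, had only 40.7% and 5. Cytl1 held 55% and 4, Chil1 51.3% and 3, and Msmp 61.3% and 4. Over all 32851 promoter windows of that length the medians were 52.7% and 7. Searched on both strands were TATAAA, the SOX core ACAAAG and the STAT pattern TTCNNNGAA. TATAAA was found in 13.6% of all windows, ACAAAG in 18.7% and TTCNNNGAA in 8.30%. Among the windows of the members, Dlk1 and a second Rbp4 start included, the only match was TATAAA in the Rbp4 window above, beginning at base -28 from the start.

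In the deposited genome build the genes lie on different chromosomes, except for Chil1 and Crispld1. By Gencode M21 coordinates, Cytl1 spans chr5:37735519-37739820, Chil1 chr1:134182176-134190181 and Crispld1 chr1:17727045-17766344, all on the plus strand. Msmp spans chr4:43583216-43584494 and Rbp4 chr19:38116629-38125281, both on the minus strand. Clu spans chr14:65968483-65981547 and Dlk1 chr12:109452823-109463336, both on the plus strand. Msmp overlaps Rgp1 on the other strand, and Crispld1 overlaps the antisense transcripts Gm16070 and Gm28153. Whether the authors' counting used strand is not given in the sources used here, so reads of these overlapping pairs may not have been told apart.

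The genes were highest in one kind of chondrocyte in the control library. Clustering without the 7 genes gave 3 chondrocyte-like clusters, led by Vit, by Srxn1 and by Panx3. The cluster led by Vit held 479 control and 112 mutant cells, with Wif1 and Frzb, both inhibitors of Wnt signalling, among its leading genes, and globin UMIs were found in 66% of its control and 2.68% of its mutant cells. Its Prg4 was at 7679 CPM in the control library, against 535 in the Srxn1-led and 26.7 in the Panx3-led cluster, while Matn1 ran the other way, at 2.83, 45.1 and 209 CPM. Mutant cells of the same clusters had 8033, 438 and 21.6 CPM of Prg4. The word articular in the name given to this gene set therefore matches the lubricin gradient among the 3 chondrocyte-like clusters. Clu was an exception, given below. Prg4 was higher still in synovial lining or superficial zone-like cells, at 111104 and 95167 CPM in the control and mutant library. Of 10 listed articular genes, Prg4 among them, 7 passed a filter on low values in the control library. All 7 were at least 2-fold higher in the Vit-led than in the other chondrocyte-like cells, where 7.41% of all genes were. Crtac1 of that list ran the other way, at 2.85 CPM in Vit-led and 10.3 in Srxn1-led control cells. Cilp, Cilp2 and Abi3bp of that list were also among the leading genes of a tenocyte-like cluster led by Angptl7.

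**Figure D1:**
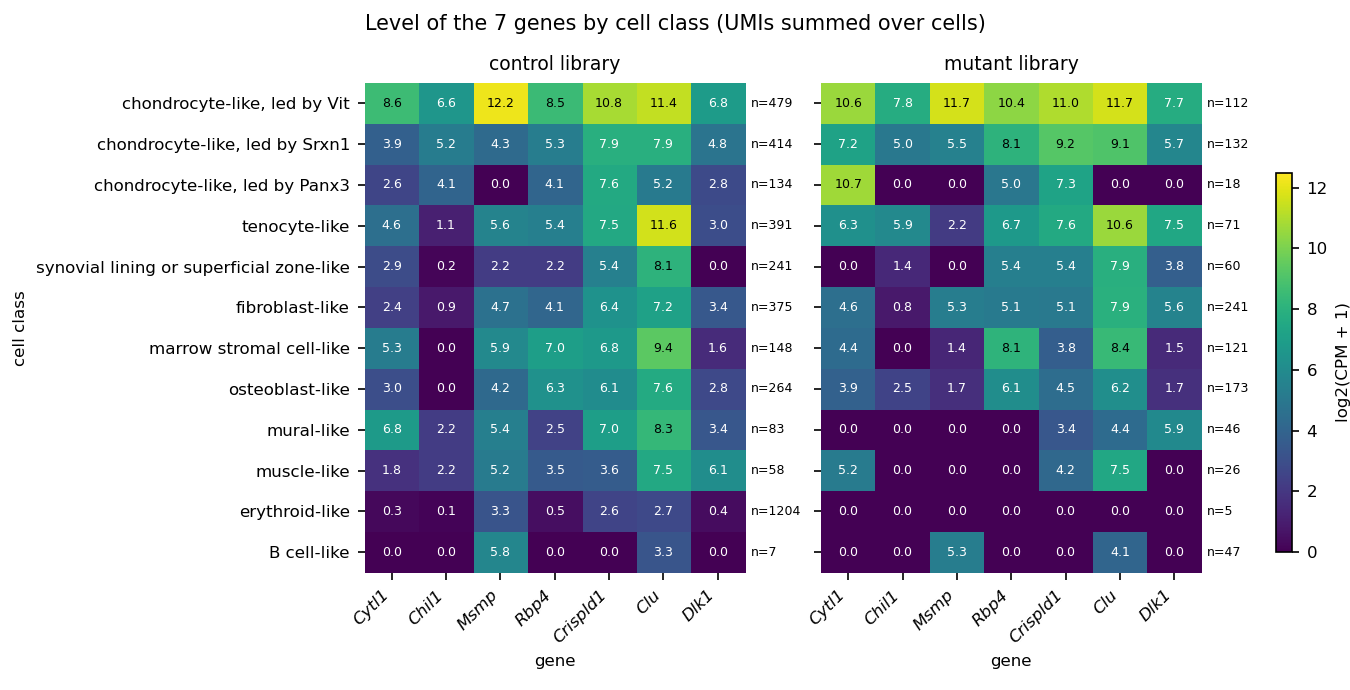
Level of each gene, as log2(CPM + 1), in each named cell class of the control library (left) and the mutant library (right), with the number of cells beside each line of the grid. The Vit-led cluster was highest for 6 genes in the control library, Clu was highest in tenocyte-like cells there, and Cytl1 of the Panx3-led cluster in the mutant library rests on 18 cells.

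Cytl1 was at 385 CPM in control cells of the Vit-led cluster, at 13.5 in the Srxn1-led and at 5.03 in the Panx3-led cluster. The mutant values were 1553, 148 and 1706 CPM. The last of these came from 5 of 18 cells, of which 3 held 89.9% of the UMIs, and it was above the Vit-led value. Outside the chondrocyte-like clusters, control tenocyte-like cells had 22.8 CPM, from 12 of 391 cells, and mural-like cells 112 CPM, from 2 of 83 cells, of which 1 held 21.8 of the 22.8 UMIs. No Cytl1 was seen in the 46 mutant mural-like cells, which allows a share of cells with a UMI of up to 6.52%. This limit, taken from 3 counts here and for other values of 0, covers counting error only and does not bound the share of cells that express the gene.

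Chil1 was the gene most restricted to chondrocyte-like cells in the control library, where 2.96% of its UMIs lay outside them. The control levels were 93.1 CPM in the Vit-led, 36.5 in the Srxn1-led and 15.6 in the Panx3-led cluster. Mutant levels were 215 and 31.0 CPM in the first pair, and 0 in the 18 Panx3-led cells, which allows a share of cells with a UMI of up to 16.7%. Control marrow stromal-like cells had 0 positive of 148 cells, which allows a share of up to 2.03%, and osteoblast-like cells 0 of 264, which allows up to 1.14%. Of the mutant Chil1 UMIs, 14.4% lay outside chondrocyte-like cells, and tenocyte-like cells stood at 58.7 CPM, against 1.17 in the control, with 18.0 of the 22.9 mutant UMIs in 1 cell. The tenocyte-like cells of the control were mostly in a cluster led by Angptl7, and those of the mutant mostly in a cluster led by Col8a1.

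Msmp had the steepest gradient of the set. It was at 4573 CPM in control and 3329 CPM in mutant Vit-led cells, against 19.3 and 43.4 CPM in Srxn1-led cells. None was found in the 134 control and 18 mutant Panx3-led cells, which allows shares of up to 2.24% and 16.7%. The Vit-led cluster, with 9.77% of the control cells, held 94.4% of all control Msmp UMIs and, in the mutant library, 93.9%.

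Rbp4 was at 367 CPM in control Vit-led cells, at 37.9 in Srxn1-led and at 15.7 in Panx3-led cells. The mutant levels were 1313, 270 and 30.2 CPM. Outside the chondrocyte-like clusters it was also present in marrow stromal-like cells, at 126 and 281 CPM in the control and mutant library, and in osteoblast-like cells, at 80.4 and 68.4 CPM. Of the osteoblast-like cells, 152 of 264 in the control and 70 of 173 in the mutant were in a cluster led by Col10a1, a gene of hypertrophic chondrocytes. Cells outside the chondrocyte-like clusters held 26.5% of its control UMIs and 19.7% of its mutant UMIs.

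Crispld1 was present throughout cartilage and still highest in the Vit-led cluster, with 1841, 233 and 193 CPM over the 3 control clusters and 2073, 589 and 154 CPM in the mutant. It was above 0 in 85.4% and 90.2% of the Vit-led cells of the control and mutant library.

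Clu was the exception among the 7 genes. Tenocyte-like cells of the control library had 3184 CPM, more than the 2624 CPM of the Vit-led cluster, and they held 42.7% of control Clu UMIs against 39.0% in the Vit-led cluster. Among mutant cells the order was turned, with 3292 CPM in the Vit-led cluster and 1573 in tenocyte-like cells. The tenocyte-like cells were not alike in makeup, since 238 of 391 control but 20 of 71 mutant cells were in the Angptl7-led cluster. Marrow stromal-like cells had 657 and 345 CPM of Clu, and 55.6% of the control UMIs lay outside chondrocyte-like cells.

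Dlk1 also had a part outside chondrocyte-like cells, 20.9% of control and 38.3% of mutant UMIs. Its control levels were 113, 27.2 and 6.10 CPM over the Vit-led, Srxn1-led and Panx3-led clusters. Muscle-like cells of the control stood at 69.2 CPM and those of the mutant at 0 over 26 cells with a median of 1810.0 UMIs, which allows a share of cells with a UMI of up to 11.5%. Mutant tenocyte-like cells were at 176 CPM, with 69.6% of those UMIs in 3 cells.

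Set against the other chondrocyte-like cells, the Vit-led cluster was at least 2-fold higher for all 7 genes in both libraries, where 7.41% of all control genes and 10.7% of all mutant genes were (all genes meaning, in such counts, those that passed the filter on low values). The log2 ratios in the control library were 8.32 for Msmp, 5.03 for Cytl1, 3.90 for Clu, 3.52 for Rbp4, 3.06 for Crispld1, 2.40 for Dlk1 and 1.60 for Chil1. Msmp was again first in the mutant library, at 6.36, and the other members lay between 1.91 for Crispld1 and 2.88 for Chil1. A smaller mutant ratio for Cytl1, 2.45, went with a higher level outside the Vit-led cluster, 283 CPM against 10.8 in the control.

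For several members a few cells held most of the transcript. In the control library, 4 cells held 50% of all Msmp UMIs, 13 cells 50% of Cytl1, 21 of Chil1, 30 of Dlk1, 70 of Rbp4, 104 of Clu and 135 of Crispld1. The mutant numbers, in the same order, were 2, 9, 7, 11, 27, 37 and 32. Msmp therefore stood apart as a gene of rare, very rich cells, and Crispld1 and Clu as genes spread over many.

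**Figure D2:**
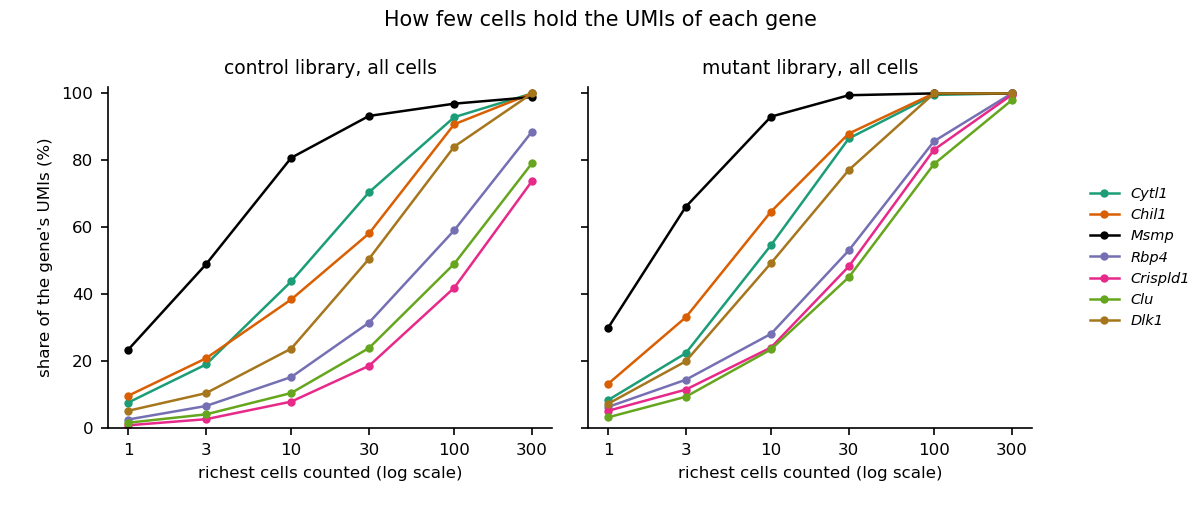
Cumulative percent of each gene's UMIs (vertical axis) held by its richest cells (horizontal axis, number of cells on a log scale), over all cells of the control (left) and mutant (right) library. Msmp climbs first, with 80.8% of control and 93.1% of mutant UMIs in 10 cells, and Cytl1 had 43.9% and 54.7% in 10 cells.

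The richest Msmp cell of the control library held 1971 Msmp UMIs of a total of 4278, or 46.1% of its transcripts, and the richest of the mutant 822 of 3299, or 24.9%. At least 100 Msmp UMIs were found in 12 control and 7 mutant cells, all in the Vit-led cluster, and no such cell was called a doublet. Only 1 of the 12 control cells was marked, against 3 of 7 in the mutant library. These few cells held 83.5% and 89% of the Msmp UMIs of their libraries, so sums over marked cells depend on which of them carry the mark. Cytl1 of at least 10 UMIs was found in 17 control cells, 14 of them in the Vit-led cluster and 8 marked, and in 33 mutant cells, 21 in the Vit-led cluster and 28 marked.

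The share of marked cells above 0 was larger in the mutant library for Cytl1 and Rbp4. Intervals here are exact 95% binomial (Clopper-Pearson) and cover counting error only. Cytl1 transcripts were found in 8.58% of control (6.28% to 11.4%) and 22.6% of mutant marked cells (18.2% to 27.5%). For Rbp4 the shares were 19.2% (15.8% to 22.9%) and 44.3% (38.9% to 49.8%). Mutant marked cells were also deeper, with a median of 8595 against 5876 UMIs. At an equal depth of 2000 UMIs, drawn from each of the 467 control and 300 mutant marked cells deep enough, the shares were 5.35% and 15.3% for Cytl1 and 11.8% and 28.7% for Rbp4.

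Chil1 transcripts were found in 10.6% of control (8.03% to 13.6%) and 12.3% of mutant marked cells (9.01% to 16.4%), and after thinning in 4.71% and 4.67%. Clu was found in 40.7% and 50% of marked cells, Crispld1 in 59.1% and 63.0%, and Dlk1 in 7.78% and 13.6%. Thinned shares were 27% and 37.3% for Clu, 40.9% and 45% for Crispld1, and 4.93% and 7.67% for Dlk1. For Chil1 the thinned shares were thus nearly equal, while 53 control and 41 mutant cells above 0 held 99.2 and 183 UMIs in all.

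For Msmp, 11.6% of control and 8.43% of mutant marked cells were positive. Of the control values above 0, 53.4% were under 0.5 UMI, fractions that appear in values corrected for ambient RNA, and at 0.5 UMI or more the shares were 5.39% and 7.53%. The order of the libraries for Msmp thus depends on that cut.

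**Figure D3:**
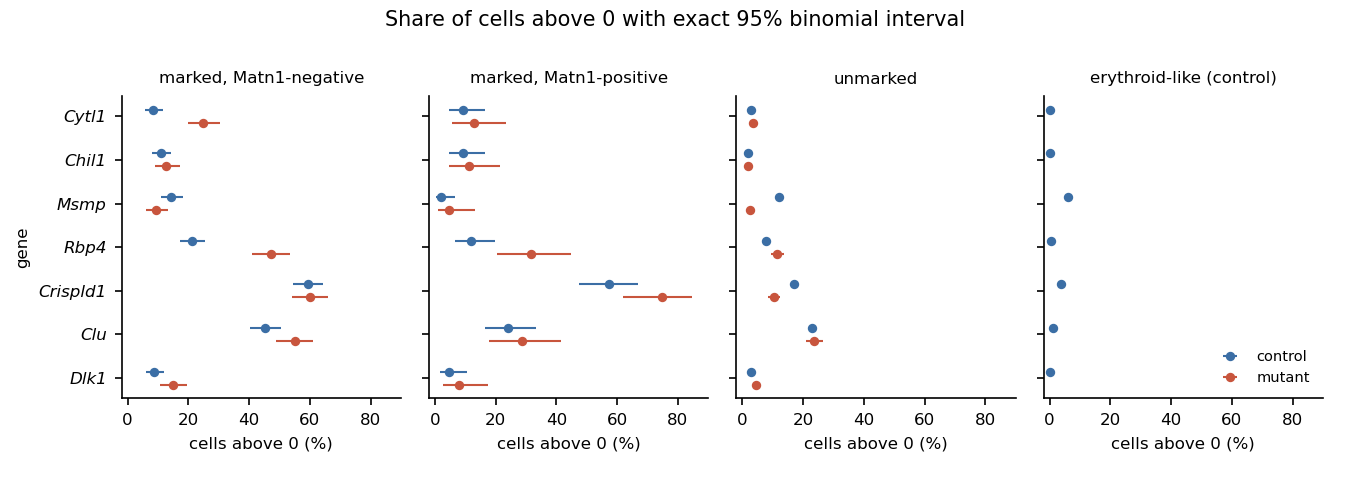
Percent of cells above 0 (horizontal axis) for each gene in Matn1-negative marked, Matn1-positive marked and unmarked cells of both libraries and in erythroid-like cells of the control library, with exact 95% binomial intervals for counting error. Cytl1 runs from 8.40% of control to 24.9% of mutant Matn1-negative cells, against 2.98% and 3.57% of unmarked cells.

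Outside the marked cells, 2.98% of control and 3.57% of mutant cells were positive for Cytl1, 1.82% and 1.98% for Chil1, and 2.7% and 4.46% for Dlk1. Rbp4 was found in 7.84% and 11.5%, Crispld1 in 17% and 10.3%, and Clu in 23.0% and 23.7%. Unmarked mutant cells were shallower, with a median of 2591 against 4132 UMIs. Thinned shares were 1.94% and 2.92% for Cytl1, 1.31% and 1.72% for Chil1, and 1.85% and 4.63% for Dlk1. For Rbp4 they were 6.03% and 11.0%, for Crispld1 12.9% and 9.43%, and for Clu 19.0% and 23.2%. Erythroid-like cells of the control library, which should lack these transcripts and had a median of 5492 UMIs, gave a background of 0.249% for Cytl1, 0.0831% for Chil1, 0.581% for Rbp4, 3.57% for Crispld1, 1.16% for Clu and 0.249% for Dlk1. For these 6 genes the unmarked share was above that background, but unmarked cells include chondrocyte-like ones. At 2000 UMIs, 45 of the 68 unmarked control cells with Cytl1 and 28 of the 46 with Chil1 were Vit-led. Among control cells not above 0 for both Sox9 and Col2a1, the shares at that depth were 0.751% for Cytl1 and 0.457% for Chil1. Msmp had the highest background, 6.15% of erythroid-like cells above 0 and 2.41% at 0.5 UMI or more, against 12.1% and 7.34% of unmarked control cells. The mutant library held only 5 erythroid-like cells, and its 47 B cell-like cells, with a median of 1266 UMIs and all at 0 for Cytl1, Chil1, Rbp4, Crispld1 and Dlk1, allow a share of up to 6.38%.

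The 512 globin-positive control cells above 0 for Sox9 and Col2a1 held 367 of the 550.0 Cytl1 UMIs and 123 of the 178 Chil1 UMIs of unmarked control cells, but 2858 of 9729.6 for Clu. Their levels were above those of the marked control cells for all 7 genes. Cytl1 stood at 156 CPM against 86.8, Chil1 at 52.5 against 32.3, Msmp at 1558 against 277 and Rbp4 at 170 against 80.0. Crispld1 stood at 788 CPM against 529, Clu at 1217 against 629 and Dlk1 at 62.6 against 32.2. The control values of the genotype ratios below rest on the marked cells only, so the ratios with the globin-positive cells added are given beside them.

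Within each library, marked cells at 0 for Matn1 had more of most members than marked cells with Matn1. Control Matn1-negative and Matn1-positive cells had 117 and 16.6 CPM of Cytl1, 105 and 21.1 of Rbp4, 861 and 79.6 of Clu, 651 and 240 of Crispld1, and 40.9 and 11.7 of Dlk1. The log2 ratios were 2.74 for Cytl1, 2.26 for Rbp4, 3.42 for Clu, 1.43 for Crispld1 and 1.73 for Dlk1. Msmp was at 394 CPM in Matn1-negative cells and at 0.74 UMI in all in the 108 Matn1-positive cells. Chil1 did not follow the others, at 34.3 CPM against 27.7, a log2 ratio of 0.30.

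Of the 5 members that passed the filter on low values in this control comparison, 4 were at least 2-fold higher in Matn1-negative cells, where 5.55% of all genes were, while Cytl1 and Dlk1 did not pass the filter there. For the mutant, 4 of 6 were, where 8.53% of all genes were, with log2 ratios of 1.85 for Cytl1, 0.77 for Rbp4, 2.18 for Clu, 1.90 for Crispld1, 3.19 for Dlk1, 3.78 for Msmp and 0.23 for Chil1. The filter asked for values above 0 in at least 10% of the cells and at least 10 CPM on either side. The Matn1-positive cells were also deeper, with medians of 8149 against 5406 UMIs for the control and 15404 against 7912 for the mutant. Their cluster makeup differed as well, since of 108 control Matn1-positive cells 60 were in the Panx3-led, 46 in the Srxn1-led and 1 in the Vit-led cluster, against 34, 187 and 119 of the 393 Matn1-negative cells.

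Chil1 stayed close between the Matn1 classes in its unthinned shares too, 10.9% of control Matn1-negative and 9.26% of Matn1-positive cells, and 12.6% and 11.1% in the mutant library. After thinning they were 5.01% and 3.70% in the control and 5.39% and 1.69% in the mutant library. The mutant shares were thus less close at equal depth, where the last rests on 1 positive cell of 59. Cytl1 was found in 8.40% of control Matn1-negative cells (5.85% to 11.6%) and 9.26% of Matn1-positive cells (4.53% to 16.4%), and after thinning in 5.85% and 3.70%, so the order of the control shares depends on depth. Among mutant cells Cytl1 was found in 24.9% of Matn1-negative (19.9% to 30.5%) and 12.7% of Matn1-positive cells (5.65% to 23.5%).

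Between genotypes, Cytl1 and Rbp4 showed the highest ratios. Over all marked cells, control and mutant had 86.8 and 556 CPM of Cytl1, so the log2 ratio was 2.66, or 6.34-fold. For Rbp4 they had 80.0 and 439 CPM, a log2 ratio of 2.44, or 5.43-fold. Dlk1 stood at 32.2 and 78.3 CPM, with a log2 ratio of 1.26. The median log2 ratio over all genes of at least 10 CPM in both libraries was -0.16, and relative to it the ratios of Cytl1 and Rbp4 were 2.82 and 2.60.

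The other 4 members stayed under 2-fold in these sums. Chil1 was at 32.3 and 59.6 CPM (log2 ratio 0.86), Clu at 629 and 1069 (0.76), Crispld1 at 529 and 808 (0.61) and Msmp at 277 and 399 (0.52). Without the 3 cells richest in the gene in each library, Msmp was at 1.73 and Chil1 at 0.39. Under median ratio scaling Chil1 was at 1.02, and under the mitochondrial and count limits at 1.0, both just past 2-fold. Thus 3 of 7 members were at least 2-fold higher in the mutant library and 0 were 2-fold lower, where 3.73% of all genes passed this fold upwards and 5.13% downwards. The rule of choice drew on this contrast, so nothing is read from the count. The median of the members was 0.86, against -0.15 over all genes that passed the filter. Prg4, in contrast, was at 2463 and 2560 CPM, a log2 ratio of 0.06. Acan, at whose locus the Cre is inserted, was at 4837 and 1697 CPM.

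**Figure D4:**
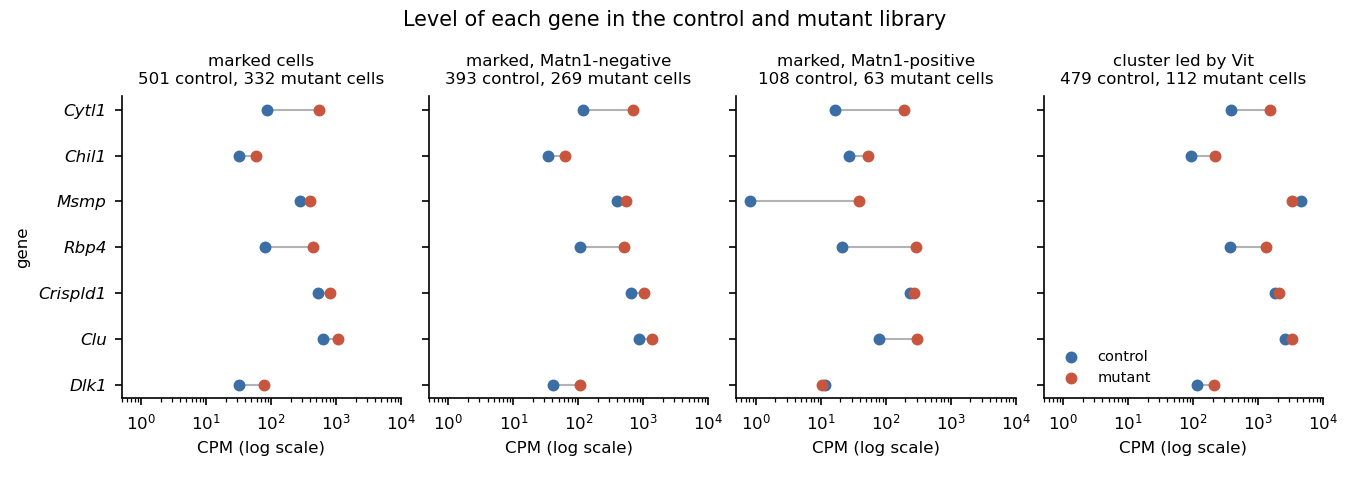
CPM of each gene (log axis) in the control and mutant library, for all marked cells, Matn1-negative marked cells, Matn1-positive marked cells and the Vit-led cluster, with 1 point per library. Cytl1 and Rbp4 were higher in the mutant library in all 4 sets of cells, while Msmp was lower in the Vit-led cluster and Dlk1 lower in Matn1-positive cells, where median ratio scaling turned its sign (0.044).

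With the globin-positive control cells included, the log2 ratios were 2.23 for Cytl1, 1.87 for Rbp4, 0.81 for Dlk1, 0.53 for Chil1, 0.33 for Crispld1, 0.28 for Clu and -1.06 for Msmp. Cytl1 and Rbp4 thus stayed past 2-fold, and the direction of Msmp turned.

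In Matn1-negative marked cells the ratios were near those of all marked cells. Control and mutant cells had 117 and 696 CPM of Cytl1 (log2 ratio 2.57), 105 and 496 of Rbp4 (2.23) and 40.9 and 104 of Dlk1 (1.33). The values were 34.3 and 62.3 CPM for Chil1 (0.84), 861 and 1364 for Clu (0.66), 651 and 1014 for Crispld1 (0.64) and 394 and 538 for Msmp (0.45). All 7 were higher in the mutant library and 3 by at least 2-fold, where 4.02% of all genes were, and 0 members were 2-fold lower, where 5.40% of all genes were. Without the 3 cells richest in the gene in each library, Chil1 was at a log2 ratio of 0.23 and Msmp at 1.51, and with the globin-positive control cells included Msmp was at -0.99.

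In Matn1-positive marked cells the ratios rest on few cells and on unlike mixes of clusters. Of the 63 mutant cells, 44 were in the Srxn1-led, 7 in the Vit-led and 6 in the Panx3-led cluster. Of the 108 control cells, 46, 1 and 60 were. Cytl1 was at 16.6 and 192 CPM (log2 ratio 3.45), with 3 cells holding 95.5% of the mutant UMIs, and without the 3 richest cells of each library the ratio was 0.48. Rbp4 was at 21.1 and 291 CPM (3.72), with 71.1% of the mutant UMIs in 3 cells. Clu was at 79.6 and 301 CPM (1.91) and Crispld1 at 240.4 and 272 (0.18). Chil1 was at 27.7 and 52.8 CPM (0.91), and turned to -0.23 without the 3 richest cells. For Dlk1, 11.7 and 10.5 CPM (-0.14) stood for 10.6 and 8.95 UMIs in all, and under median ratio scaling the ratio was 0.044. Msmp, with 0.74 control and 32.6 mutant UMIs, has a control value under the floor of 3 counts set for a fold, so none is given. Among the 5 members that passed the filter, 3 were at least 2-fold higher, where 7.23% of all genes were, and 0 were lower by that much, where 14.9% of all genes were.

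The marked cells of the libraries differed in makeup. The Vit-led cluster held 24.0% of control and 24.1% of mutant marked cells, the Srxn1-led 46.5% and 39.2% and the Panx3-led 18.8% and 4.82%. The mark took in different parts of the Vit-led cluster, however. Of its 479 control cells 359 were unmarked, 316 of them with globin, and of its 112 mutant cells 32 were unmarked, 3 of them with globin. Cells of classes outside the chondrocyte-like clusters made up 10.8% of control (8.2% to 13.8%) and 31.9% of mutant marked cells (26.9% to 37.2%). Of the 54 control and 106 mutant cells, 13 and 36 were in an unnamed cluster of low depth led by Micall1, which had 5 of the chondrocyte markers. Without all these cells, a choice made after seeing the data, the log2 ratios were 2.85 for Cytl1, 2.64 for Rbp4, 1.34 for Dlk1, 1.31 for Clu, 1.03 for Chil1, 0.89 for Crispld1 and 0.69 for Msmp, so 5 members passed 2-fold.

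Within the Vit-led cluster, marked or not, control and mutant cells had 385 and 1553 CPM of Cytl1 (log2 ratio 2.01), 367 and 1313 of Rbp4 (1.84) and 93.1 and 215 of Chil1 (1.2). These 3 of 7 members were at least 2-fold higher, where 4.16% of all genes were, and 0 were 2-fold lower, where 7.65% of all genes were. Dlk1 was at 113 and 211 CPM (0.89), Clu at 2624 and 3292 (0.33) and Crispld1 at 1841 and 2073 (0.17). Msmp went the other way over the whole cluster, at 4573 and 3329 CPM (-0.46). In its unmarked cells alone, 359 control and 32 mutant cells, Msmp was at 5780 and 9897 CPM (0.78). Limited to the marked cells of the cluster, 120 control and 80 mutant cells, the log2 ratios were 1.86 for Cytl1, 1.90 for Rbp4, 1.48 for Chil1, 0.60 for Clu, 0.52 for Dlk1, 0.14 for Crispld1 and 0.12 for Msmp. Shares of positive cells in the whole cluster were 21.3% and 38.4% for Cytl1, 45.3% and 84.8% for Rbp4 and 13.2% and 31.2% for Chil1, and after thinning 15.1% and 30.7%, 38.9% and 68.3%, and 8.89% and 18.8%.

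In Srxn1-led marked cells, control and mutant had 8.06 and 149 CPM of Cytl1, above 0 in 6 of 233 and 23 of 130 cells, and 3 cells held 79.6% of the mutant UMIs. Rbp4 was at 29.1 and 271 CPM, above 0 in 22 and 56 cells. Chil1 was at 30.2 and 31.1 CPM, above 0 in 26 and 15 cells, with 34.0 of the 52.8 mutant UMIs in 1 cell. Thinned shares were 1.72% and 6.92% for Cytl1, 4.72% and 20% for Rbp4, and 4.72% and 1.54% for Chil1. The higher mutant level of Cytl1 and Rbp4 was therefore present in both of the larger clusters, and that of Chil1 in the Vit-led one.

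Among marked cells the 7 genes were mostly weakly and positively correlated. Pearson's r of the log2 values was above 0 in 20 of 21 pairs over the 501 control cells, from -0.02 to 0.43 with a median of 0.165, and in 21 of 21 pairs over the 332 mutant cells, from 0.05 to 0.65 with a median of 0.275. Cells of a library share their pool and their depth, and correlations of sparse values depend on both. Pairs of at least 0.2 numbered 9 among control and 15 among mutant cells. The highest were Crispld1 with Clu, 0.43 and 0.50, Rbp4 with Clu, 0.41 and 0.65, and Rbp4 with Crispld1, 0.38 and 0.58.

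**Figure D5:**
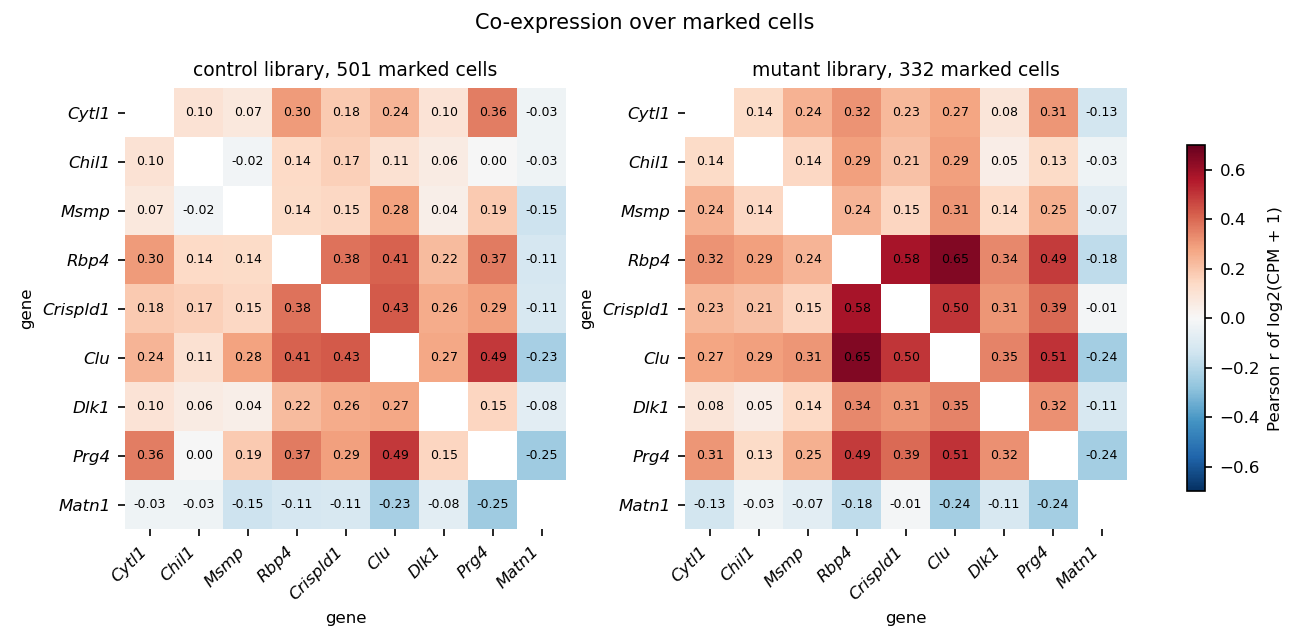
Pearson's r of deposited log2 values over marked cells for each pair of the 7 genes, with Prg4 and Matn1 added, in the control library (left, 501 cells) and the mutant library (right, 332 cells). Rbp4, Crispld1 and Clu form the block of higher values, Chil1 has low values throughout in the control library, and Matn1 is negative with all 7 genes in both.

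Cytl1 and Chil1 had an r of 0.10 (control) and 0.14 (mutant), and few cells held both. Chil1 was above 0 in 18.6% of the 43 control cells with Cytl1 (8.39% to 33.4%) and in 9.83% of the 458 without. Of the mutant cells it was above 0 in 21.3% of the 75 cells with Cytl1 (12.7% to 32.3%) and in 9.73% of the 257 without. After thinning, the phi coefficient of detection, another measure than r, was 0.13 and -0.0064. Of the 300 thinned mutant cells, 46 held Cytl1 and 14 held Chil1. These are too few to say whether the mutant value holds at equal depth.

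Cytl1 was nearer to Prg4, with r of 0.36 and 0.31, and to Rbp4, with 0.30 and 0.32. For Chil1 the r with Prg4 was 0.00 and 0.13. Against Matn1, r lay between -0.23 and -0.03 over the 7 genes in the control and between -0.24 and -0.01 in the mutant library, with Clu at the lower end in both. Within the marked cells of the Vit-led cluster alone, the median r over the 21 pairs was 0.092 for the control and 0.085 for the mutant, below that over all marked cells. With the log2 of a cell's total UMIs, r was -0.18 and -0.01 for Cytl1, 0.04 and 0.07 for Chil1, -0.17 and 0.10 for Clu and 0.00 and 0.32 for Crispld1.

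Cells with many of the members were mostly in the Vit-led cluster. At least 4 of the 7 genes were above 0 in 58 control marked cells (11.6%) and 81 mutant marked cells (24.4%). In Vit-led marked cells the shares were 38.3% and 67.5%, in Srxn1-led 4.29% and 19.2%, and in Panx3-led 0 of 94 and 0 of 16 cells. Thinned to 2000 UMIs, the shares over all marked cells were 4.93% and 12.7%, and in Vit-led marked cells 17.8% and 42.7%. None of the 7 was detected in 26.5% of control and 20.5% of mutant marked cells.

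The genes outside the set most like Cytl1 over marked cells, by the lower r of the libraries, were Prg4 (0.36 in the control, 0.31 in the mutant), Cpe (0.20 and 0.23), Ecm2 (0.19 and 0.25), Cst3 (0.19 and 0.27) and Chad (0.19 and 0.29). Prg4 codes for lubricin, Cpe for a carboxypeptidase of secretory granules, Cst3 for a secreted inhibitor of cysteine proteases and Chad for a cartilage matrix protein. The least like were Gpc1 (-0.22 and -0.27), mt-Nd4l (-0.22 and -0.19) and Cd44 (-0.18 and -0.22). Of the 4 other members above 0 in at least 10% of marked cells of both libraries, 2 reached an r of at least 0.2 with Cytl1 in the control library, Rbp4 and Clu, and 3 in the mutant library, where 0.248% and 0.284% of all genes so detected did.

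For Chil1 the most like were Cst3 (0.18 and 0.19), Spon1 (0.21 and 0.17), Apoe (0.16 and 0.25), Dcn (0.15 and 0.19) and Ogn (0.16 and 0.15). Dcn and Ogn code for small proteoglycans of the matrix and Apoe for a lipid carrier. The least like were Zmynd8 (-0.15 and -0.16), Tgfbi (-0.13 and -0.17) and C1qtnf3 (-0.11 and -0.15). Of the 3 other members detected that widely, 0 reached an r of at least 0.2 with Chil1 over control cells and 3 over mutant cells, where 0.0177% and 0.692% of all genes so detected did. Cst3 was named by both genes, and control and mutant marked cells had 1650.2 and 4311 CPM of it.

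Relatives and partners of the 7 genes were looked up as lists, compared here in marked cells with the same fold and filter. Of 10 other articular genes, 7 passed the filter, 6 of them were higher in the mutant library, and 2 by at least 2-fold, where 3.73% of all genes were. These were Tnfrsf11b, a decoy receptor that limits bone resorption, at 66.1 and 187 CPM, and Fgf18, a growth factor of cartilage, at 9.76 and 25.8 CPM. The median log2 ratio of the list was 0.38, against -0.15 over all genes. Within the Vit-led cluster the list showed no such shift. There 8 of its genes passed the filter, 4 were higher and 4 lower in the mutant library, and 0 reached 2-fold. The median was -0.09, against -0.12 over all genes. Of 14 growth cartilage genes, 12 passed, with a median of -0.07, and the only one of them past 2-fold was Runx3, a transcription factor of maturing chondrocytes, at 133 and 50.1 CPM. Col10a1, the collagen of hypertrophic chondrocytes, was at 92.1 and 475 CPM but above 0 in too few cells to pass.

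Of 10 receptors and partners reported for the members, 4 passed, with a median of 0.12. Ccr2, Il13ra2 and Stra6 were at 0 in marked cells of both libraries, and Lrp8, a receptor of the LDL receptor family, was the only one past 2-fold, at 70.8 and 28.9 CPM. Tmem219 was at 10.5 and 16.6 CPM, Notch1 at 15.5 and 27.5 and Notch2 at 44.5 and 34.1. Of 15 genes of retinoid handling, 5 passed and 0 reached 2-fold in either direction, with a median of -0.38. Rarg, a retinoic acid receptor, was at 108 and 83.2 CPM, and Cyp26b1, which degrades retinoic acid, at 28.3 and 18.9. The retinoid genes therefore did not share the size of the Rbp4 ratio.

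Of 8 genes of the chitinase family other than Chil1, 5 were at 0 in both libraries and 1 passed, Chid1, at 24.3 and 22.4 CPM, a log2 ratio of -0.11. Of 6 genes of the imprinted Dlk1-Dio3 region, 3 passed, with a median of -0.15 and none past 2-fold. Meg3, the non-coding transcript expressed from the other parental allele than Dlk1, was at 1183 and 1069 CPM, and Rian at 273 and 165. Of 7 extracellular chaperones and apolipoproteins, 2 passed, Apod at 20.7 and 137 CPM (log2 ratio 2.67) and Apoe at 658 and 1066 (0.70), with a median of 1.68. Of 9 genes with a CAP domain, 2 passed, Crispld2 at 186 and 97.6 CPM (-0.93) and R3hdml at 38.4 and 23.4 (-0.69), with a median of -0.81. Crispld1 and its nearest relative Crispld2 thus lay on opposite sides of equality, and in the Vit-led cluster Crispld2 was at 505 and 165 CPM, a log2 ratio of -1.61.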

How the data were processed

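Single-cell 3′ libraries were made from 1 pool of knee joints per genotype. Per the labels and the methods, the authors aligned reads to mm10 with STAR 2.7.3a in Partek Flow. They counted UMIs on a Gencode annotation and removed ambient RNA with SoupX. The methods also name a removal of cells past 5% mitochondrial or 24000 total counts, and a batch correction. Yet of the 4903 control and 1340 mutant cells deposited, 14.2% and 36.7% were over 5% mitochondrial. Whether the deposited values are batch-corrected is not known. The values deposited by the authors are log2(CPM + 1) per cell for 32245 genes. The deposited total per cell is an estimated count, the mitochondrial and ribosomal shares deposited beside it are a percent of that total, and a further deposited column is a score, the number of genes found per cell.

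From these, estimated UMIs were recovered as (2 to the power of the value, minus 1) times the cell's total over 1000000. They were within 0.1 of a whole number for 74.9% of control and 97.3% of mutant values above 0, so no count model was used. UMIs were summed over cells per library, with a pseudocount of 1 CPM for ratios. Cells were clustered without the 7 genes (scanpy 1.11.5, Leiden, 2000 variable genes, 30 principal components, 15 neighbours, resolution 1), which gave 21 clusters. A cluster was named from at least 3 markers of a type, and stayed unnamed where another type had more markers among its 10 leading genes or where it was shallow for its library with no marker among them. Doublets, called with Scrublet, were 1.51% of control and 0.149% of mutant cells, a mutant rate at which doublets may remain, and called cells were kept. Thinning drew 2000 UMIs from each cell after rounding, so 923 control and 457 mutant cells were too shallow. The number of cells and, through the sums, the depth set the precision. Counts past 2-fold used genes above 0 in at least 10% of the cells, with at least 10 CPM, in either group. Pearson's r was taken over marked cells. Positions follow Gencode M21, and promoter windows RefSeq on GRCm38.p6.

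The members, the gene lists and the markers were chosen with earlier results of these data known. Named besides the members were Matn1, the 5 genes most and 3 least like Cytl1 and Chil1 among genes above 0 in at least 10% of marked cells of both libraries, and members of the lists. Prg4, Acan and Stat3 were added as reference genes, and list members were picked for naming after their values were seen. The ratio and correlation steps were tested on simulated data. Alternatives were the weighting, scaling and pseudocount, the choice of cells, doublets, the richest cells, the Matn1 cut and the detection cut.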

Additional observations from a re-analysis of the deposited data

Results flagged for a closer look

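A pair of genotype ratios pointed opposite ways in different sets of cells, and in neither case was the difference tested. Msmp was at a log2 ratio of -0.46 in the Vit-led cluster and at 0.52 over all marked cells. Split by the mark, that cluster was at 0.12 in marked and 0.78 in unmarked cells, so neither part shared the sign of the whole. Unmarked were 359 of its 479 control and 32 of its 112 mutant cells. With 12 control and 7 mutant cells holding most Msmp UMIs, and 1 and 3 of them marked, the sets of cells differ in which of these they include. Dlk1 was at -0.14 in Matn1-positive and at 1.33 in Matn1-negative marked cells, and the former value stands for 10.6 control and 8.95 mutant UMIs.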

How the results depend on the processing

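Of 532 values recomputed under an alternative, 422 kept their direction and their size within the set limits, 93 moved, 15 turned in direction, and 2 were counts that passed or lost a 1.5-fold limit. For the log2 ratio in marked cells the range over the alternatives was 2.23 to 2.92 for Cytl1, 1.87 to 2.64 for Rbp4 and 0.39 to 1.03 for Chil1. For the values below, the cause was not tested.

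With globin-positive cells included, Msmp stood at -1.06 in all and -0.99 in Matn1-negative marked cells, and in chondrocyte-like clusters at -0.58. Without the 3 richest cells, Chil1 stood at 0.23 in Matn1-negative and -0.23 in Matn1-positive cells, and in the latter Cytl1 at 0.48 and Dlk1 at 0.16, and 2 members remained past 2-fold there. Dlk1 in those cells was at 0.044 under median ratio scaling and 0.033 under the mitochondrial and count limits. With Matn1 split at 2 UMIs, the genotype ratio in Matn1-positive cells was 4.88 for Cytl1 and -0.15 for Crispld1, and the ratio of Matn1-negative to Matn1-positive cells was 3.82 for control Cytl1, -0.56 for control Chil1 and -0.38 for mutant Chil1. Weighting cells equally put the last at -0.29. Among marked cells of chondrocyte-like clusters, an alternative chosen after seeing the data, 5 members were past 2-fold.

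At 2 UMIs or more, the share of marked cells was 3.59% (control) and 14.8% (mutant) for Cytl1 and 1.80% and 3.31% for Chil1, and that of unmarked cells 1.02% and 1.69% for Cytl1 and 0.318% and 0.694% for Chil1. Thinned shares of marked cells were 5.35% and 15.3% for Cytl1 and 4.71% and 4.67% for Chil1, and of unmarked control cells 1.94% and 1.31%. Unmarked control cells without globin held Cytl1 in 2.47%. After thinning, the share of Matn1-negative minus that of Matn1-positive cells was 2.15 percentage points for control Cytl1 and 11.7 for mutant Crispld1, and phi in mutant cells was -0.0064 for Cytl1 with Chil1 and -0.064 for Chil1 with Dlk1.

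No paired analysis was possible because each genotype had 1 library. Depth limits the shares, since the marked mutant cells were deeper and the unmarked mutant cells shallower than those of the control. Ratios of Matn1-positive cells rest on few cells.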
